A study of Drosophila melanogaster with 20 samples.

Results

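The genes described here encode proteins of the cytosolic ribosome of Drosophila melanogaster, together with close relatives that share their names. A probe set was taken when the platform annotation gave it exactly 1 gene and the symbol of that gene began with RpL, RpS or RpLP followed by a digit, which leaves out the mitochondrial ribosomal proteins. The rule found 37 genes, with 1 probe set each, among the 14010 probe sets of the Affymetrix DrosGenome1 array. The RefSeq gene table holds 92 symbols of this form, and those without such a probe set, RpS3, RpS6 and RpL10 among them, are not analysed here. Of the 37 genes, 15 encode proteins of the large (60S) subunit, 15 proteins of the small (40S) subunit and 3 the ribosomal stalk. The other 4 have symbols ending in -like.

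The study asked which genes respond when manganese superoxide dismutase (MnSOD), the antioxidant enzyme of the mitochondrial matrix encoded by Sod2, is over-expressed in adult flies. Adult males carried 1 MnSOD insertion, MnSOD(2)22, whose transcription is switched on by doxycycline (DOX) in the food through the transactivator rtTA, supplied by the line rtTA(3)E2. Males of this line were sampled without DOX at about day 73 (MnSOD -DOX), with DOX at about day 73 (same chronological age) and with DOX at about day 83, when the treated flies had themselves reached 50% survival (same physiological age). Control males from Oregon R crossed to rtTA(3)E2 were sampled with DOX (control +DOX) and without it (control -DOX). The sample labels place both control groups at about day 73 and the series text at day 78. Every group therefore carried the transactivator, the MnSOD results come from a single insertion line, and each sample pooled 30 males. The study describes rtTA as present throughout the fly's tissues, and by its methods the food held ampicillin with or without DOX. There were 4 arrays per group and 20 in all. The labels call the replicates biological, and no source used here states whether their cultures were separate. The p-values therefore measure the spread between these samples, which may be technical.

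Across the 20 arrays the median of all probe sets ran from 5.49 to 5.68 on the log2 scale, and pairs of arrays correlated at 0.957 to 0.997. Sod2 checked the MnSOD labels: it averaged 8.42 in MnSOD -DOX and 12.49 in MnSOD +DOX at day 73. The control labels are less settled. Sod2 averaged 7.56 in control -DOX and 7.94 in control +DOX, higher by 0.38 (adjusted p = 0.00312 in limma). DptB, an antimicrobial peptide gene, averaged 8.61 in control -DOX and 12.83 in control +DOX, but 12.35 in MnSOD -DOX and 9.81 in MnSOD +DOX at day 73. For both, the direction of the control difference opposes the one the study gives, for MnSOD and for immune genes. The study's reported gene counts were matched here with the control labels exchanged and not by the labels, as given below. All signs below for DOX in control flies, and for changes corrected with it, follow the labels. The comparison of the lines without DOX also rests on them. Control +DOX replicates 1 to 3 also stood apart in technical probe sets. The mean of 9 bacterial spike-in probe sets was 8.41, 7.98 and 8.09 on these arrays and 9.69 in replicate 4, and lay between 9.36 and 10.24 in the other groups. A measure of RNA quality also differed, the 3′ minus 5′ signal of the actin, eIF-4a and GAPDH control probe sets. It ran from 1.96 to 3.35 in control -DOX, from 1.05 to 1.88 in control +DOX, from 1.40 to 1.80 in MnSOD -DOX, from 1.51 to 1.70 in MnSOD +DOX at day 73 and from 1.72 to 2.18 at day 83. The groups did not overlap between control -DOX and control +DOX, between control -DOX and MnSOD -DOX, or between day 73 and day 83 with DOX, and the part of this measure in the results was not tested.

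A ribosome is built from rRNA and one copy of most of its proteins, whose genes are as a rule highly expressed and regulated together. The growth pathway through the kinase TOR sets how much of this output is made and translated. In flies several ribosomal proteins have a second gene, often used mainly in the germ line of testis or ovary. Losing 1 of the gene copies gives, for many of these proteins, the Minute phenotype of slow development and short bristles. The stalk, a complex of RpLP0 with dimers of RpLP1 and RpLP2, recruits the GTPases that drive elongation.

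Values are RMA log2 signals. A signal depends on the sequences of its probes, so levels are compared between groups and not between genes. Among 27 genes kept here as main copies, 26 had means over 20 arrays between 10.70 (RpL28) and 12.66 (RpL32), and RpS29 had a mean of 8.04. A further 6 genes were treated as second copies, RpL10Aa, RpL37-2, RpS5b, RpS10a, RpS19b and RpS28a, a split made by hand with their levels known. Their means ran from 5.61 to 7.06. The 4 -like genes, RpL22-like, RpL24-like, RpL7-like and RpLP0-like, ran from 5.33 to 7.70. RpL22-like is the second form of RpL22, found in the fly male germ line. RpL24-like and RpLP0-like are, by homology to yeast Rlp24 and Mrt4, assembly factors of the large subunit, and RpL7-like is a relative of RpL7.

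**Figure D1:**
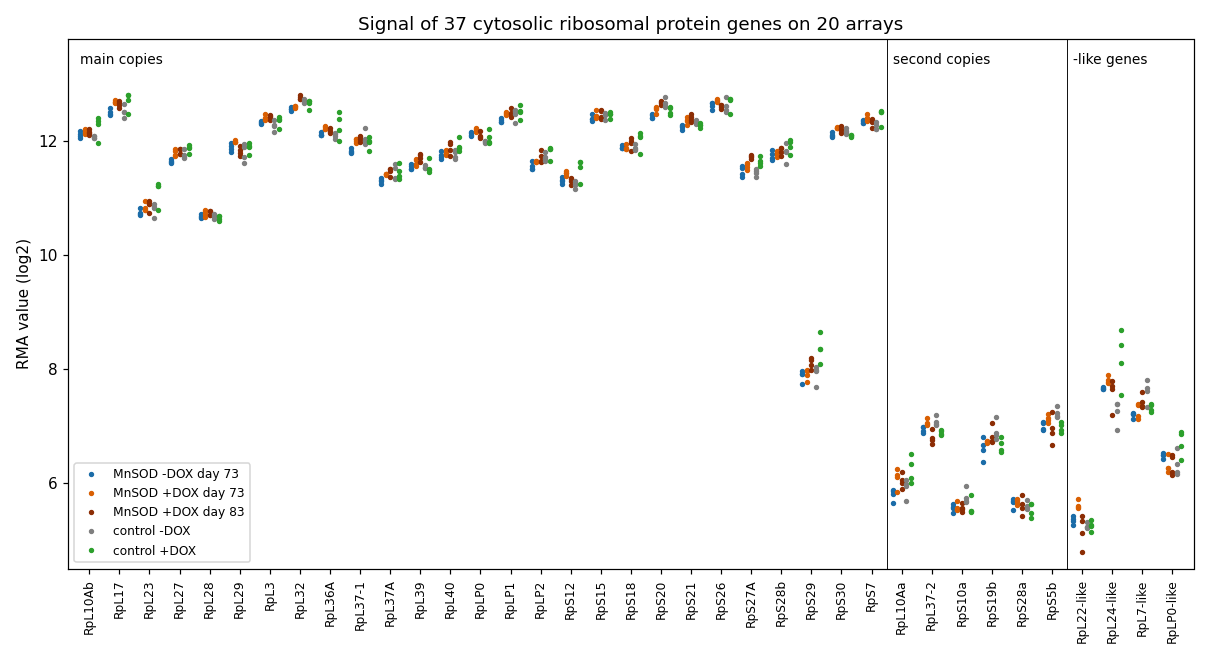
Each point is the RMA value (log2, y axis) of a gene (x axis) on 1 of the 20 arrays, coloured by group, with main copies, second copies and -like genes set apart. Of the main copies, 26 have means of 10.70 to 12.66, and their 5 groups lie close together.

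The main copies varied little. Their SD within groups had a median of 0.077 over the 27 genes, from 0.034 (RpS30) to 0.145 (RpS29), against a median of 0.127 for all probe sets. It was 0.102 for the 185 other probe sets with means of at least that of RpL28. The second copies had a median of 0.115 and the -like genes 0.157. From the lowest to the highest group mean, a main copy moved by a median of 0.18, with extremes of 0.07 for RpS15, a protein of the small subunit's head, and 0.48 for RpS29. Deviations from the group means ran together: over the 20 arrays the pairwise correlation of main copies had a median of 0.48 and 99.1% of pairs were above 0, while the other 10 genes gave a median of 0.15. These pairs share RNA, array and normalization, so the correlations are given as a description.

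The mean of the 27 main copies was 11.76 ± 0.024 in MnSOD -DOX, 11.85 ± 0.014 in MnSOD +DOX at day 73, 11.87 ± 0.047 in MnSOD +DOX at day 83, 11.80 ± 0.050 in control -DOX and 11.89 ± 0.101 in control +DOX (SD, n = 4 arrays each). MnSOD -DOX was the lowest group for 14 of the 27 main copies and the highest for 0. Control +DOX was the highest for 13 and the lowest for 3. Within control +DOX the mean was 11.97, 11.92 and 11.94 in replicates 1 to 3 and 11.75 in replicate 4. Replicates 1 to 3 lay above every array of the 3 MnSOD groups except that of MnSOD +DOX day 83 replicate 3 at 11.92, and replicate 4 lay at the level of MnSOD -DOX.

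**Figure D2:**
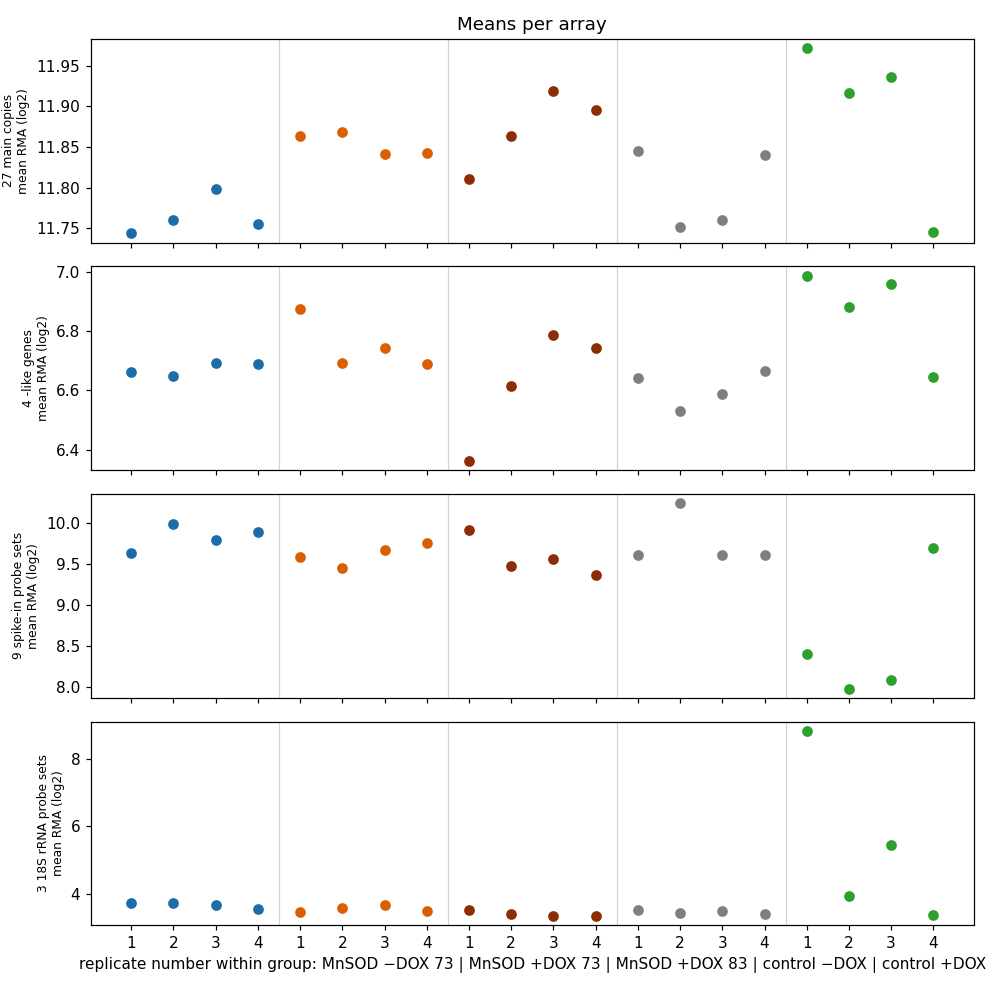
Means per array on the log2 scale of the 27 main copies, the 4 -like genes, 9 spike-in probe sets and 3 probe sets of 18S rRNA, with the replicate number on the x axis and vertical lines between the 5 groups. Control +DOX replicates 1 to 3 have high main-copy means (11.92 to 11.97) and low spike-in means (7.98 to 8.41), and replicate 4 has neither.

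The first question was whether these genes differed in the MnSOD line with and without DOX at the same chronological age. The groups differ in DOX as well as in MnSOD, and the parts of each cannot be told apart here. At day 73, 0 of the 37 genes were called in MnSOD +DOX against MnSOD -DOX, where a call needs an adjusted p under 0.01 in limma and a fold of at least 1.2. Of all 14010 probe sets, 0.664% were called, 0.200% higher and 0.464% lower. At an unadjusted p under 0.05 there were 6 members. The lowest adjusted p was 0.227, for RpL37-1. The signs leaned one way all the same: 35 of 37 changes were above 0, with a median of 0.09, against a median of -0.00 for all probe sets. In 15 genes all 4 treated arrays lay above all 4 untreated ones, and the opposite order was found for 0. Among all probe sets 7.83% had all treated arrays higher and 5.06% all lower. The 185 other probe sets of like signal also had a median of 0.09, with 133 above 0 and 72 without overlap upward.

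RpL17, at the mouth of the tunnel through which the new peptide leaves the ribosome, gave 12.59, 12.46, 12.52 and 12.47 in MnSOD -DOX and 12.67, 12.70, 12.72 and 12.69 in MnSOD +DOX at day 73. All treated arrays were higher and the groups were apart. Its change of 0.19 (standard error 0.074, adjusted p = 0.322) did not pass the test. RpL37-1 gave 11.82, 11.82, 11.88 and 11.79 without DOX and 12.04, 12.05, 12.01 and 11.98 with it, again without overlap. The change was also 0.19 (standard error 0.067). All 3 stalk genes had small positive changes, 0.07 for RpLP0, 0.12 for RpLP1 and 0.08 for RpLP2, none of which was called. All 6 second copies were above 0, from 0.02 to 0.29, and none was called. Of the -like genes, RpL22-like had the largest change, 0.27 (standard error 0.096, adjusted p = 0.235), with all treated arrays higher.

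At the same physiological age, MnSOD +DOX at day 83 against MnSOD -DOX at day 73, 0 of the 37 genes were called, with 9.27% of all probe sets called, 3.01% higher and 6.26% lower. At an unadjusted p under 0.05 there were 14. The groups differ in DOX and in age as well as in MnSOD. The 8 arrays include the same MnSOD -DOX arrays as at day 73, so the comparisons are not independent. The members were above 0 in 26 of 37 cases with a median of 0.09, against -0.04 for all probe sets. In 14 all treated arrays were higher, against 9.71% of all probe sets, and in 0 all were lower, against 17.2%. The main copies had a median of 0.12 with 22 of 27 above 0. The 185 other probe sets of like signal had a median of 0.08 with 120 above 0. In 68 of these all treated arrays were higher, and in 26 all were lower.

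A pair of main copies passed the p-value but not the fold. RpS27A, translated as a fusion to ubiquitin, gave 11.54, 11.38, 11.57 and 11.42 in MnSOD -DOX and 11.76, 11.72, 11.74 and 11.70 in MnSOD +DOX at day 83. Every treated array was above every untreated one. The change was 0.25 (standard error 0.063, adjusted p = 0.00751), and leaving out MnSOD -DOX replicate 3 raised it to 0.28 and made it a call. RpS20, of the small subunit's head, gave 12.40, 12.47, 12.47 and 12.42 against 12.67, 12.69, 12.71 and 12.64, also without overlap. Its change was 0.24 (standard error 0.060, adjusted p = 0.00754).

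RpL32, which was the loading control of the study's Northern blots and is better known as rp49, came next. It gave 12.57, 12.54, 12.60 and 12.56 in MnSOD -DOX, 12.62, 12.62, 12.58 and 12.61 in MnSOD +DOX at day 73, and 12.75, 12.74, 12.79 and 12.82 at day 83. The day 83 arrays were above all others of the MnSOD line. The change of 0.21 against MnSOD -DOX (standard error 0.057, adjusted p = 0.0123) did not pass the threshold, nor did the change of 0.17 between the ages (standard error 0.057, adjusted p = 0.0497). Over all 5 groups its means spanned 0.21 and its SD within groups was 0.042. With each array centred on its own median, 4 members were called higher at day 83: RpS27A at 0.32, RpS20 at 0.31, RpL37-1 at 0.29 and RpL32 at 0.28. With a further quantile normalization 2 were called, RpL32 at 0.29 and RpS27A at 0.28.

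RpL40, the other ubiquitin fusion, which joins the large subunit late in its maturation, gave 11.68, 11.72, 11.83 and 11.76 in MnSOD -DOX and 11.74, 11.85, 11.96 and 11.99 at day 83. These groups overlapped. Testis transcripts moved in the same comparison: 7 of 9 measured testis markers rose and 0 fell. Their mean level was 9.20 to 9.47 over the arrays of MnSOD -DOX and 9.70 to 9.93 at day 83. Of 6 accessory gland markers 0 rose and 4 fell, with a median change of -0.64, and of 4 gut markers 2 fell, with a median of -0.39. The labels name no dissected tissue, and in such RNA a change in the share of a tissue and a change in RNA per cell cannot be told apart. The part of these tissues in the members' values was not tested.

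Between day 73 and day 83 with MnSOD on, 1 of 37 genes was called, lower, against 3.69% of all probe sets called and 2.74% called lower (0.949% higher). RpL22-like gave 5.72, 5.59, 5.56 and 5.60 at day 73 and 4.78, 5.13, 5.34 and 5.42 at day 83. All day 83 arrays were lower. The change was -0.45 (standard error 0.096, adjusted p = 0.00559). The day 83 arrays were spread widely, and replicate 1, the lowest, also had the lowest median of all 20 arrays (5.49). The call did not hold without any one of MnSOD +DOX day 73 replicates 1, 2, 3 or 4 (-0.41, -0.46, -0.47 and -0.45) or day 83 replicates 1 or 2 (-0.32 and -0.43), with adjusted p of 0.012 to 0.0213.

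RpL37-2, the second copy of RpL37, gave 7.03, 7.06, 7.02 and 7.15 at day 73 and 6.79, 6.75, 6.96 and 6.69 at day 83. All day 83 arrays were lower, by -0.27 on average (standard error 0.067, adjusted p = 0.0128), which did not pass. It was called without MnSOD +DOX day 83 replicate 3 (-0.32) or without control -DOX replicate 1, which enters only through the common spread. Of the 37 genes, 5 had all day 83 arrays lower, against 14.8% of all probe sets, and 3 all higher, against 7.01%. The main copies had a median of 0.02 and 17 of 27 above 0. The second copies were below 0 in 5 of 6 cases, and 1 of 9 testis markers rose.

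**Figure D3:**
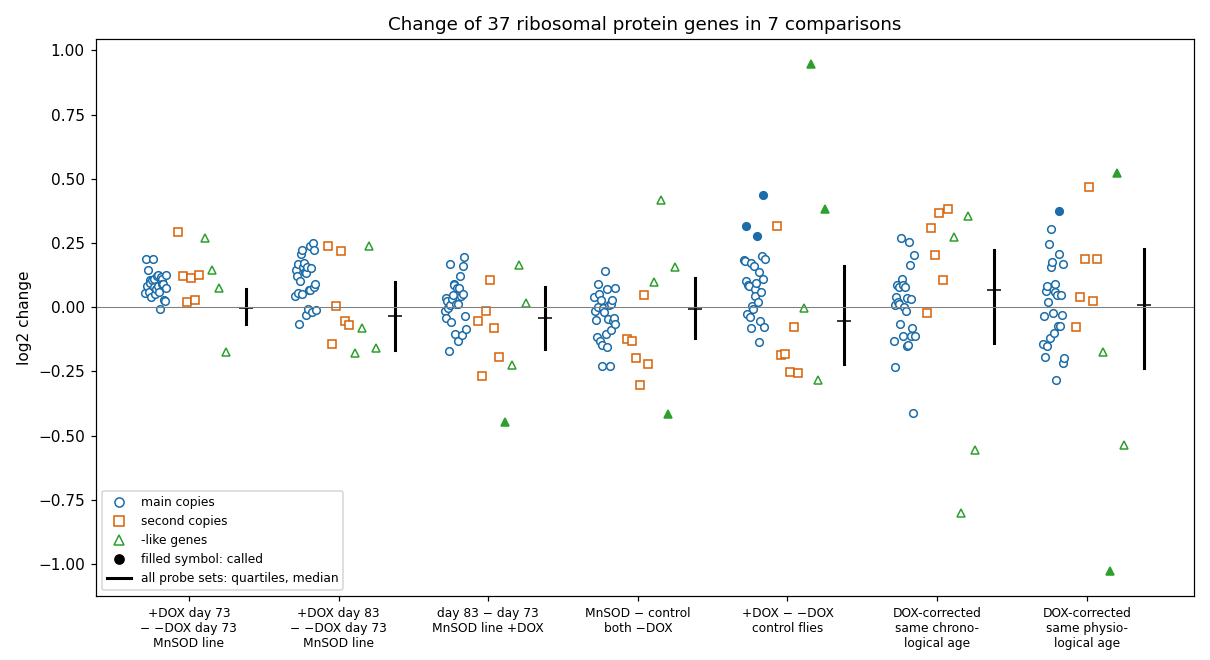
Log2 change (y axis) of each of the 37 genes in 7 comparisons (x axis), with symbols for main copies, second copies and -like genes and filled symbols for called genes. Black lines give the quartiles and median of all probe sets. The main copies sit slightly above 0 in the first 2 comparisons with 0 called, and in the last 5 the largest change belongs to a -like gene.

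By the labels, the MnSOD line and control flies without DOX differ by the insertion and by the rest of their parental genomes. They also differ in age if the controls were sampled at day 78, as in the series text. If the control labels are exchanged, they differ in DOX as well. This comparison was not run with the labels exchanged. In MnSOD -DOX against control -DOX, 1 of 37 genes was called, lower, with 6.55% of all probe sets called, 3.21% higher and 3.33% lower. RpL7-like gave 7.12, 7.23, 7.22 and 7.21 in MnSOD -DOX and 7.81, 7.63, 7.67 and 7.34 in control -DOX. All MnSOD arrays were lower, and the control arrays were spread more. The gene's mean was 7.19 in MnSOD -DOX, 7.61 in control -DOX and 7.33 in control +DOX. The change was -0.42 (standard error 0.088, adjusted p = 0.00255). Without MnSOD -DOX replicate 1 it was -0.39 (adjusted p = 0.0124) and without control -DOX replicate 1 it was -0.35 (adjusted p = 0.0104), so neither passed.

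The members leaned slightly down between the lines, with 15 of 37 above 0 and a median of -0.04, against -0.01 for all probe sets. All MnSOD arrays were lower for 10 genes, against 10.5% of all probe sets, and higher for 2, against 11.5%. The 185 other probe sets of like signal had a median of -0.05 with 76 above 0. All MnSOD arrays were lower for 50 of them and higher for 38. Among the 10 members, RpS20 had a change of -0.23 (adjusted p = 0.0123) and RpL37-1 of -0.23 (adjusted p = 0.0242). Of the second copies, 5 of 6 were below 0, from -0.30 for RpS19b to -0.13 for RpL10Aa, and 3 had no overlap. RpS19b gave 6.81, 6.38, 6.59 and 6.66 in MnSOD -DOX and 7.15, 6.78, 6.84 and 6.88 in control -DOX. The groups overlapped in 1 MnSOD array, and the adjusted p was 0.0317. Beside this, 6 of 9 testis markers fell and 0 rose, with mean levels of 9.20 to 9.47 in MnSOD -DOX and 9.84 to 10.08 in control -DOX. Of 4 muscle markers 2 rose, with a median of 0.78, of 6 accessory gland markers 2 rose (median 0.07), and of 4 gut markers 1 rose and 1 fell. The part of these tissues in the members' values was not tested. The 2 members with all MnSOD arrays higher were RpL24-like and RpLP0. RpL24-like gave 7.67, 7.66, 7.64 and 7.68 in MnSOD -DOX and 7.40, 6.93, 7.27 and 7.39 in control -DOX. The change of 0.42 was the highest of the members and was not called. RpLP0 gave 12.12, 12.10, 12.17 and 12.15 against 12.01, 11.97, 12.00 and 12.00. Its change of 0.14 was not called.

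DOX in control flies, measured to separate the drug from the transgene, gave the most calls among these genes. By the labels, 5 of 37 were called higher in control +DOX and 0 lower. With the labels exchanged, as the study's gene counts have it, the same 5 are lower by construction. Of all probe sets 26.2% were called, 12.1% higher and 14.1% lower. RpL24-like gave 7.40, 6.93, 7.27 and 7.39 in control -DOX and 8.69, 8.11, 8.42 and 7.54 in control +DOX. All labelled +DOX arrays were higher, and replicate 4 was the closest to those labelled -DOX. The change was 0.95 (standard error 0.164, adjusted p = 0.0002). RpS29, a small zinc-binding protein of the 40S subunit, gave 8.04, 7.99, 7.69 and 7.97 against 8.65, 8.36, 8.35 and 8.09, again without overlap and with replicate 4 the lowest. Its change was 0.44 (standard error 0.098, adjusted p = 0.00144).

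RpL23, on the face of the large subunit that meets the small one, gave 10.84, 10.65, 10.82 and 10.91 in control -DOX and 11.25, 11.22, 11.22 and 10.79 in control +DOX. Replicates 1 to 3 were above all control -DOX arrays, and replicate 4 lay among the latter. The change was 0.32 (standard error 0.087, adjusted p = 0.00632). RpS12, the 40S protein known in flies for its role in the competition between Minute and wild-type cells, gave 11.27, 11.16, 11.23 and 11.31 against 11.56, 11.63, 11.64 and 11.25, with the same pattern. The change was 0.28 (standard error 0.075, adjusted p = 0.00548). RpLP0-like gave 6.15, 6.33, 6.19 and 6.62 against 6.65, 6.86, 6.90 and 6.41, and changed by 0.38 (standard error 0.112, adjusted p = 0.00921). Replicate 4 was again within the control -DOX range.

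The control +DOX arrays with the higher values were mostly those with low spike-in signal, replicates 1 to 3. Their 18S rRNA probe sets averaged 8.84, 3.94 and 5.44, against 3.37 in replicate 4 and 3.34 to 3.73 in the other groups. Without replicates 1 to 3, 1 array was left to stand for control +DOX and was assumed to vary like the other groups. The changes were then 0.29 for RpL24-like, 0.16 for RpS29, 0.09 for RpLP0-like, 0.005 for RpS12 and -0.01 for RpL23. Without replicate 4 alone 8 genes were called higher. Without any one of replicates 1, 2 or 3, or of control -DOX replicates 2 or 3, the count was 2. RpL23 and RpS12 were not called without any one of those 5 arrays. RpLP0-like lost its call in 13 of the 20 fits that left out 1 array, at adjusted p of up to 0.0433. RpL24-like and RpS29 were called in all 20. With the spike-in signal as a covariate 0 members were called, against 0.571% of all probe sets called higher and 0.15% lower. The median of the main copies went from 0.09 to -0.06.

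The main copies as a whole had a median of 0.09 by the labels, with 20 of 27 above 0. The 185 other probe sets of like signal also had a median of 0.09, and all probe sets -0.05. Non-overlapping groups were found for 3 members upward, against 11.7% of all probe sets, and 4 downward, against 15.4%. The third upward gene was RpS27A, with a change of 0.20 (adjusted p = 0.0136). Of the second copies, 5 of 6 were below 0. RpS5b, whose gene is used mainly in the germ line, gave 7.36, 7.15, 7.23 and 7.18 in control -DOX and 6.93, 7.02, 6.88 and 7.07 in control +DOX. Its groups did not overlap, and the change of -0.26 (standard error 0.090) had an adjusted p of 0.0247. Testis markers went the same way: 4 of 9 fell and 0 rose, with mean levels of 9.84 to 10.08 in control -DOX and 9.59 to 9.93 in control +DOX, and their part was not tested. After a further quantile normalization 1 member was called higher (RpL24-like at 0.76) and 3 lower (RpL7-like at -0.43, RpS5b at -0.36 and RpL37-2 at -0.28), with a main-copy median of -0.03.

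**Figure D4:**
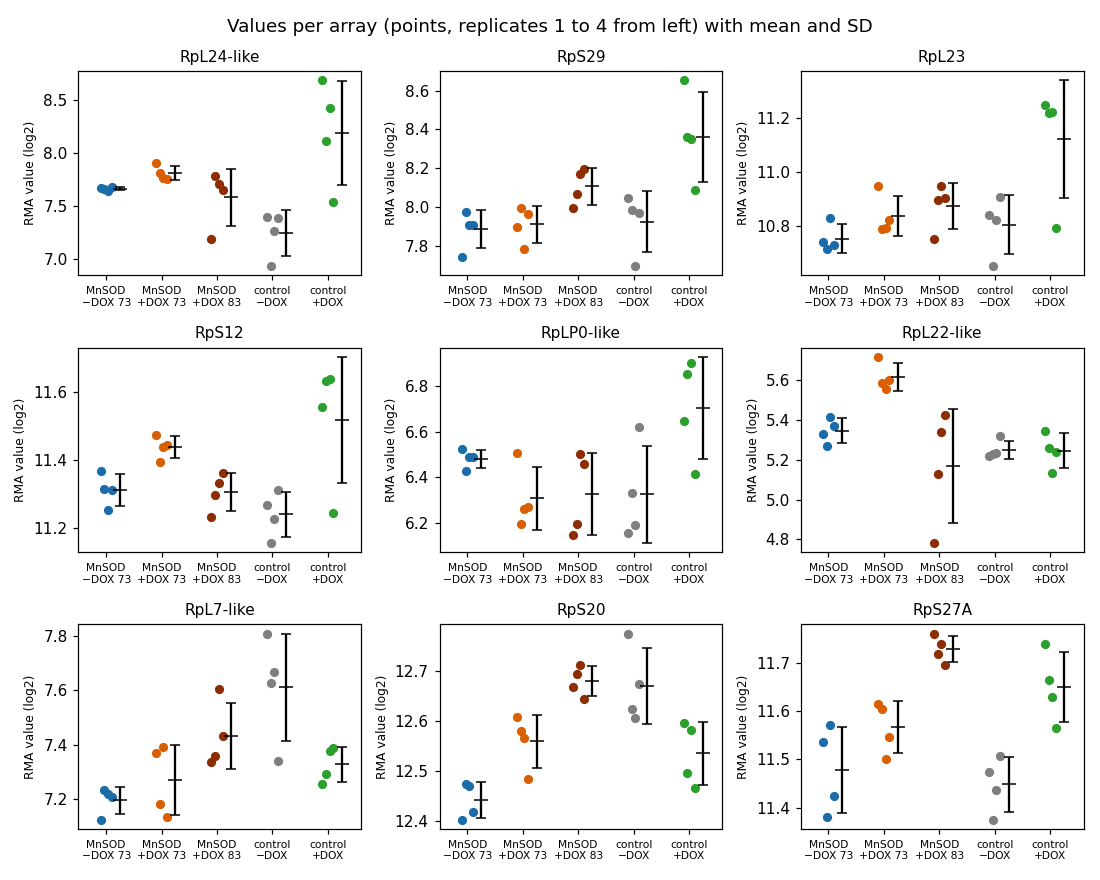
RMA values (log2, y axes) of 9 genes in the 5 groups (x axes), with a point for each array, replicates 1 to 4 from left to right, and the mean and SD of 4 arrays in black. In RpL23 and RpS12 control +DOX replicates 1 to 3 stand above the other arrays and replicate 4 among them, and in RpL22-like the day 83 arrays run from 4.78 to 5.42.

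The study's main contrasts subtract the DOX change of control flies from the change in the MnSOD line, and both subtract the same 8 control arrays. At the same chronological age 0 of 37 members were called, with 6.0% of all probe sets called, 2.22% higher and 3.78% lower. There were 10 members at an unadjusted p under 0.05 and 7 at an adjusted p under 0.05, and the lowest adjusted p was 0.0198, for RpLP0-like at -0.56. RpL24-like was at -0.80 (standard error 0.232, adjusted p = 0.0219). Without control +DOX replicate 4, 3 members were called lower: RpL24-like at -1.02, RpLP0-like at -0.65 and RpS29 at -0.51. Without control -DOX replicate 4, RpL7-like was called higher at 0.45 and RpLP0-like lower at -0.66.

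At the same physiological age 3 of 37 members were called, 2 higher and 1 lower, with 17.6% of all probe sets called, 8.13% higher and 9.49% lower. RpL24-like was lower by -1.03 (standard error 0.232, adjusted p = 0.00211). Its uncorrected change in the MnSOD line was -0.08, and the change subtracted was 0.95. RpL7-like was higher by 0.52 (standard error 0.124, adjusted p = 0.00312), made of 0.24 in the MnSOD line and -0.28 in control flies. RpS20 was higher by 0.37 (standard error 0.085, adjusted p = 0.00217), made of 0.24 and -0.13. Each of the 3 was called in all 20 fits that left out 1 array. Without control +DOX replicates 1 to 3 together, 0 were called. With the spike-in signal as a covariate RpL24-like (-0.52, adjusted p = 0.0723) and RpL7-like (0.49, adjusted p = 0.0292) lost their calls, and 2 members were called higher, RpS20 at 0.42 and RpL37-1 at 0.43. A further quantile normalization gave 6 called higher in place of 2, with RpL24-like still called lower at -0.82.

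These counts depended on the direction of the control change. With the labels of the control groups exchanged, 4.68% of all probe sets were called higher and 4.58% lower at the same chronological age. At the same physiological age it was 6.12% and 10.5%. As shares of all probe sets these match the gene counts that the study reports, and the shares by the labels do not. The study's contrasts thus go with the exchanged labels. In that fit 3 members were called higher at the same chronological age (RpL24-like at 1.09, RpL10Aa at 0.61 and RpS12 at 0.40) and 4 at the same physiological age (RpL24-like at 0.87, RpS29 at 0.66, RpL10Aa at 0.55 and RpS27A at 0.45). RpL24-like thus changed its sign. The main-copy medians were 0.01 and 0.02 by the labels, and 0.16 and 0.18 with the groups exchanged.

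Other genes of translation were read from lists of initiation and elongation factors, ribosome biogenesis, TOR signalling and ribosome-associated proteins, of which 47 of 61 listed genes were measured. In the MnSOD line at day 73, 0 were called in limma, against 0.664% of all probe sets, and the lowest adjusted p was 0.326, for eEF1gamma at 0.17. At day 83, 4 rose and 3 fell, against 3.01% of all probe sets called higher and 6.26% lower. The risers were eEF5 (0.45), which helps the ribosome through proline stretches, eIF3f1 (0.40) and eIF3i (0.40), subunits of the initiation factor that binds the 40S subunit, and eEF1gamma (0.39). The genes that fell were the nucleolar biogenesis factors Non3 (-0.57), Nnp-1 (-0.47) and pit (-0.43). Between the ages eEF5 (0.39) and eIF3f1 (0.35) rose and Non3 (-0.50) fell, with 0.949% of all probe sets called higher and 2.74% lower. Between the lines without DOX, by the labels, 4 rose and 4 fell, with 3.21% of all probe sets called higher and 3.33% lower. Lower in the MnSOD line were eEF5 (-0.46), the TOR target S6k (-0.45), eIF3f1 (-0.36) and eEF1gamma (-0.32). Higher were eEF1delta (0.62), Non3 (0.47), Nnp-1 (0.47) and eIF2beta (0.46). The last 2 comparisons share MnSOD arrays with the day 83 one.

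By the labels, 21 of the 47 translation genes rose in control +DOX and 0 fell, with a median of 0.30, against 12.1% of all probe sets called higher and 14.1% lower. With the labels exchanged, as the study's gene counts have it, 0 rose and 21 fell by construction, with a median of -0.30. With the spike-in signal as a covariate 0 were called, against 0.571% of all probe sets called higher and 0.15% lower. The median was then 0.07, and 0.08 without control +DOX replicates 1 to 3 together, where 1 array was left. These fits of the translation genes were added after the data had been seen. By the labels, 11 of 20 initiation factors rose, among them the cap-binding complex genes eIF4G1 (0.72) and eIF4E1 (0.63) and the eIF3 subunits eIF3c (0.65) and eIF3b (0.60). Of 14 biogenesis genes 5 rose, with Tif-IA, the growth-regulated initiation factor of RNA polymerase I, at 0.63. The DOX-corrected counts were 0 higher and 3 lower at the same chronological age (2.22% and 3.78% of all probe sets) and 3 higher and 10 lower at the same physiological age (8.13% and 9.49%). With the control labels exchanged they were 10 higher and 0 lower (4.68% and 4.58% of all probe sets), and 14 higher and 0 lower (6.12% and 10.5%). With the spike-in covariate they were 0 and 0, and 2 higher and 3 lower. Without control +DOX replicates 1 to 3 they were 0 and 0, and 1 higher and 0 lower. The 64 mitochondrial ribosomal protein genes had medians of 0.05 at day 73 and -0.05 at day 83 in the MnSOD line. There 0 and 2 genes were called, the latter 1 higher and 1 lower, against 0.664% and 9.27% of all probe sets. For DOX in control flies, by the labels, their median was -0.02, with 5 called, 2 higher and 3 lower, against 26.2% of all probe sets called. At day 73, 54 of the 64 genes were above 0.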

How the data were processed

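Each of 20 Affymetrix DrosGenome1 arrays held RNA from 30 adult males, and the sample labels put 4 arrays in each of 5 groups. The authors computed robust multichip average (RMA) values with affy, whose version no source used here gives, and deposited them as log2 values in 1 table, all columns of which were used. RMA leaves no probe intensities, so background correction was not varied, and the 4 arrays per group limit the precision.

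Genes were named from the platform annotation, which gives 1 gene for 12444 probe sets, several for 327 and none for 1239. All 37 members matched the RefSeq gene table. A further 2 probe sets name a member together with another gene and were not used. All 14010 probe sets of the 20 arrays entered 1 linear model with a mean per group in limma 3.58.1 (R 4.3.3), with empirical Bayes moderation and Benjamini-Hochberg adjustment within each of 7 contrasts. Calls needed a fold of 1.2 or more together with an adjusted p below 0.01. Figures were drawn with matplotlib 3.10.9. The fit was tested on simulated data with known changes, and 0 pairs of arrays were identical.

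The members, the gene lists, the second copies and the alternatives were chosen with earlier results of these data known. Genes were named by a rule: the largest called changes, the highest and lowest levels, the widest group means, the stalk, duplicated and -like genes, RpL32 and the ubiquitin fusions, up to 4 called genes per comparison from the translation lists, and Sod2 and DptB as checks of the labels. RpL28, RpL36A, RpS7, RpS15, RpS18, RpS30 and some of the translation genes lie outside it and were named after their values were seen.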

Additional observations from a re-analysis of the deposited data

Results flagged for a closer look

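In groups of 4 arrays, 9 of 185 combinations of gene and group (4.86%) held an array set far from the other 3 by Dixon's criterion, and chance alone gives about 1 in 20. Of the 9, 5 lay in control +DOX and each was replicate 4. It was the lowest for RpS26 (12.48), a protein beside the path of the mRNA, for RpS7 (12.24), for the stalk gene RpLP2 (11.66) and for RpL23 (10.79). It was the highest for the second copy RpS10a (5.79). The other 3 control +DOX arrays are those with low spike-in signal. The part of that signal in these gaps was not tested.

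The other flagged arrays were single ones. RpL36A was highest in MnSOD -DOX replicate 1 (12.16), RpS30 in MnSOD +DOX day 73 replicate 4 (12.25), RpS18 in MnSOD +DOX day 73 replicate 2 (11.95) and RpL22-like in control -DOX replicate 4 (5.32).

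In the DOX-corrected change at the same physiological age 3 genes were called in limma. That change also holds the step from day 73 to day 83 in the MnSOD line, which the control groups lack. At the same chronological age 0 members were called. RpL24-like changed by -1.03, RpL7-like by 0.52 and RpS20 by 0.37. All 3 rest on the labels of the control groups. With these exchanged, RpL24-like was called higher at 0.87, and RpL7-like (-0.045) and RpS20 (0.10) were not called.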

How the results depend on the processing

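Leaving out the dimmest 40% of probe sets changed no count or call. Averaging the probe sets of a gene and updating symbols could change none. Of the members, 0 had more than 1 probe set and 0 changed symbol on update. Background correction was not run, since only RMA values were used. Equal replicate numbers did not pair the samples: of 40 same-numbered pairs of arrays 6 had correlated deviations over 0.1, with a range of -0.39 to 0.36. With the replicate number as a block, 4 members were called higher for DOX in control flies in place of 5, RpLP0-like (0.38, adjusted p = 0.0142 in limma) losing its call, and no other call of the 39 values tried was changed. Median centring moved the median of all probe sets by less than 0.1 in every contrast.

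At an adjusted p under 0.05 with no minimum fold, 9 members were called higher and 4 lower for DOX in control flies, 4 higher at day 83 against MnSOD -DOX, 1 higher and 2 lower between the ages, 4 lower between the lines, 4 higher and 3 lower in the DOX-corrected change at the same chronological age, and 5 higher and 3 lower at the same physiological age. With only the groups of the contrast in the fit, 1 was called higher for DOX in control flies and 0 lower between the ages. Median centring gave 4 called higher at day 83, with main-copy medians of 0.19 there and 0.10 between the ages. A further quantile normalization gave 1 called higher and 3 lower for DOX in control flies (median -0.032), 2 higher at day 83, 1 higher at the same chronological age, RpS5b, and 6 higher at the same physiological age (median 0.082).

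With the spike-in signal as a covariate, 0 were called higher for DOX in control flies (median -0.057), 2 lower between the ages, 1 higher between the lines (RpL24-like at 0.45) and 0 lower at the same physiological age, where RpL7-like also lost its call and RpL37-1 gained one. Of all probe sets that fit called 0.571% higher and 0.15% lower for DOX, and 2.38% and 3.45% at the same physiological age. The corrected medians of the main copies were 0.11 and 0.12. RpL10Ab (-0.045), RpL23 (-0.00982) and RpS7 (-0.00184) turned their sign for DOX. Without control +DOX replicates 1 to 3, the main-copy median for DOX was -0.054, and the corrected medians were 0.14 and 0.15. RpL10Ab (-0.10), RpL23 (-0.012) and RpS7 (-0.021) turned here too. The cause was not tested.

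With the control labels exchanged, 0 were called higher and 5 lower for DOX (median -0.087), 3 higher at the same chronological age (median 0.16), and 4 higher and 0 lower at the same physiological age (median 0.18). By construction each DOX change turned: RpL10Aa -0.31, RpL10Ab -0.18, RpL23 -0.32, RpL24-like -0.95, RpL37-2 0.19, RpL7-like 0.28, RpLP0-like -0.38, RpS12 -0.28, RpS19b 0.25, RpS27A -0.20, RpS29 -0.44, RpS5b 0.26 and RpS7 -0.19. At the same chronological age the values turned were RpL24-like 1.09, RpL37-2 -0.062, RpL7-like -0.21, RpLP0-like 0.21, RpS20 -0.017, RpS29 0.46 and RpS5b -0.13. At the same physiological age they were RpL24-like 0.87, RpL7-like -0.045, RpLP0-like 0.22, RpS12 0.27 and RpS19b -0.031.

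With each array left out in turn, the members called for DOX in control flies ranged from 2 to 8 higher and from 0 to 1 lower, at the same chronological age from 0 to 1 higher and 0 to 3 lower, at the same physiological age from 1 to 3 lower, at day 83 against MnSOD -DOX from 0 to 1 higher, between the ages from 0 to 2 lower and between the lines from 0 to 1 lower.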
